A study of Mus musculus with 12 samples.

Results

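Amino acid and peptide transporters are the membrane proteins that carry the products of protein digestion, and amino acids for the cell's own use, across the plasma membrane or out of lysosomes. The set described here held every row of the deposited array table whose gene symbol belongs to the solute carrier families Slc1, Slc3, Slc6, Slc7, Slc15, Slc36, Slc38 or Slc43. The rows were found by symbol, and the families were chosen with earlier results of these data known. It had 42 of 15154 rows, and 20 of these 42 were above background on at least 3 of 12 arrays and could be tested. One of the 42, Slc7a6os, matches by name only: it is the gene on the strand opposite to Slc7a6 and is no transporter. The set was fixed by family and not by substrate, so it also holds carriers of other solutes, such as the creatine transporter Slc6a8. Several carriers that are well known in the gut (Slc3a1, Slc6a6, Slc6a19, Slc6a20b, Slc7a5, Slc7a7, Slc7a11 and Slc36a1) were not analysed here. Slc6a20a, Slc15a5 and Slc6a21 stand in the table under older symbols, lie outside the set, and were detected on 0 of 12 arrays.

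The samples were colonocytes, the absorptive epithelial cells that line the large intestine, isolated from C57BL/6 mice and measured as total RNA on Illumina bead arrays. There were 6 samples from germfree mice (GF, reared in isolators without any microbes) and 6 from conventionally raised mice (CONV, with a normal gut microbiota). Each of 2 batches named in the labels held 3 GF and 3 CONV samples. The labels name no sex or age, and call the 6 samples of a group biological replicates without saying whether each was 1 mouse.

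In the small intestine, dietary protein is cut by pancreatic and brush-border peptidases into short peptides and free amino acids. Peptides enter with protons through PepT1 (Slc15a1), while free amino acids enter through sodium-coupled carriers and through exchangers such as b0,+AT (Slc7a9). On the blood side, heteromeric exchangers built from a light chain of the Slc7 family and a heavy chain of the Slc3 family pass them on. In the normal colon these uptake routes are known to be weak, and the epithelium draws much of its fuel from short-chain fatty acids that bacteria make.

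Of the 20 rows tested, 8 were higher in GF than in CONV colonocytes and 1 was lower, against 11% of all 8122 tested rows higher and 11.9% lower, or 22.9% in either direction (limma, adjusted p below 0.05, batch as a term). The rows that rose were Slc7a9, Slc7a8, Slc15a1, Slc7a4, Slc1a5, Slc6a8, Slc38a2 and Slc6a7, and the row that fell was Slc1a1. The median change of the 20 rows was 0.26 on the log2 scale (GF minus CONV, as for every change below), against 0.01 over all rows tested. It was 0.15 without background correction or in batch 2 alone, and 0.42 over the 12 members left by a stricter detection filter. With the 3 arrays of each group of batch 1 averaged into 1 sample, 1 row was higher (Slc7a9) and 0 were lower by limma, while 113 and 155 of all rows were called. Slc7a9 was also the row with the widest separation: its groups did not overlap over the 12 arrays, as for 3.84% of all rows tested (1.85% higher, 1.99% lower), and among the members this held for Slc7a8 too. Within each batch, in the same direction, the groups were apart for 8 of the 20 members, 7 of them higher and 1 lower (Slc6a9, not called), against 13.6% of all rows (6.6% higher, 7.03% lower).

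**Figure D1:**
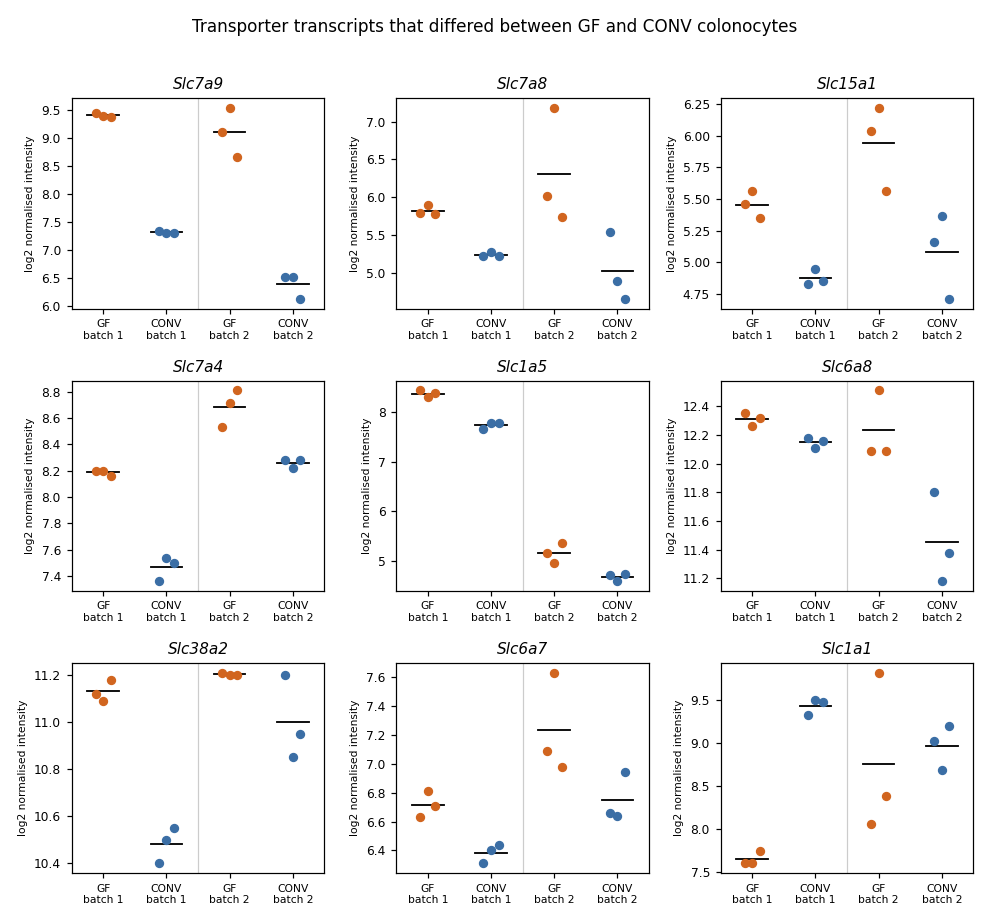
Log2 normalised intensity of the 9 transporter rows called, with 1 point per array, 3 arrays per group and batch, and a bar at their mean. GF points lie above CONV points within each batch for Slc7a9, whereas Slc1a1 is lower in all 3 GF arrays of batch 1 and has 1 GF array of batch 2, at 9.82, above every CONV array.

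Slc7a9 had the largest change of the set. It codes for b0,+AT, the light chain of the exchanger that takes up cystine and basic amino acids at the brush border, whose loss causes cystinuria in humans. In batch 1 its log2 intensity was 9.46, 9.39 and 9.38 in GF arrays, against 7.34, 7.31 and 7.31 in CONV arrays. In batch 2 it was 9.11, 9.54 and 8.66 in GF arrays, against 6.53, 6.52 and 6.13 in CONV arrays. Every GF array was above every CONV array. The change was 2.40 ± 0.15 (log2, GF minus CONV, SE, n = 6 per group), or 5.28-fold, with a limma adjusted p = 1.81e-06 and rank 8 of 8122 rows by p. It was 2.09 in batch 1 (adjusted p = 5.57e-08), with 2.71 in batch 2 (adjusted p = 0.00693), and Slc7a9 was the only member called in batch 2 alone, where 1.05% of all rows were called higher. Without background correction the change was 1.73.

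The sequences upstream of the genes with the largest changes are shown because these carriers moved by different amounts and, for Slc1a1, in the other direction. Windows from RefSeq's promoter table (build GRCm38.p6) were used for 5 of the 9 called genes: Slc7a9, Slc1a1, Slc7a8, Slc15a1 and Slc38a2. The 250 bases before the gene's start are given 5′ to 3′ on the gene's strand for the first 4 of these. Capitals mark TAATNATTA, the inner letters of the palindrome bound by HNF1, a transcription factor of gut and kidney epithelium.
Slc7a9, chr7:35448842-35449091, plus strand: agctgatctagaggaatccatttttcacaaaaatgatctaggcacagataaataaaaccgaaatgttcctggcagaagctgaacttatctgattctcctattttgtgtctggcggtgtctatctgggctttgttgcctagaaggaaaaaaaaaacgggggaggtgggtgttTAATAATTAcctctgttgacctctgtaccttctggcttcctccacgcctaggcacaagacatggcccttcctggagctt
Slc1a1, chr19:28834885-28835134, plus strand: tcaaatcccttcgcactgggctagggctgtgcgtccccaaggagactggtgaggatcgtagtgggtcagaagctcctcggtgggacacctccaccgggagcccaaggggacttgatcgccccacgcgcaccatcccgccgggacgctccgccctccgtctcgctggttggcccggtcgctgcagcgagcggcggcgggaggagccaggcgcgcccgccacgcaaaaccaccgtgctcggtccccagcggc
Slc7a8, chr14:54781887-54782136, minus strand: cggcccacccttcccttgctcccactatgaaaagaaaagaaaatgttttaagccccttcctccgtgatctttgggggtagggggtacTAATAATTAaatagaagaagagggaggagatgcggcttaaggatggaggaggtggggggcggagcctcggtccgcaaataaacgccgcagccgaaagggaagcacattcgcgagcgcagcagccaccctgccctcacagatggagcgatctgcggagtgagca
Slc15a1, chr14:121505255-121505504, minus strand: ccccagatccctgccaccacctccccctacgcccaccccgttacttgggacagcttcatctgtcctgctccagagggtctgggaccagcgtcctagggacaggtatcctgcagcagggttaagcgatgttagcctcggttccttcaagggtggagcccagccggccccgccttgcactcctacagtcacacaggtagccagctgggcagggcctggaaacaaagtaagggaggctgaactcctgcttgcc

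These letters were searched on both strands and stood upstream of Slc7a9, from base -79 to base -71 counted from the gene's start, and of Slc7a8, from base -163 to base -155. They stand in 0.588% of the 32851 promoter windows of this length in the table, and this motif was chosen after the sequences had been read. The longer HNF1 palindrome (in 0.131% of windows), an HNF4 motif (CAAAGTCCA, 0.384%), a CDX2 motif (TTTATNG, 9.81%) and the amino acid response element (TGATGNAA, 3.45%) had no match in the 5 windows. The GC content of the windows was 44.4% for Slc7a9, 70.4% for Slc1a1, 55.6% for Slc7a8, 62.0% for Slc15a1 and 72.0% for Slc38a2. A match is a description of these letters, and no match says only that they are not in this window.

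All 3 peptide transporter rows of family Slc15 could be tested, and 1 of them rose. Slc15a1 codes for PepT1, the proton-coupled carrier of di- and tripeptides at the brush border. In batch 1 it stood at 5.46, 5.56 and 5.35 in GF arrays, against 4.83, 4.95 and 4.85 in CONV arrays (log2 intensity). In batch 2 it stood at 6.04, 6.22 and 5.56 in GF arrays, against 5.16, 5.37 and 4.71 in CONV arrays. The groups were apart within each batch, but the transcript was dim: it was detected on 5 of 6 GF arrays and on 1 of 6 CONV arrays, so it passed the detection filter through its GF arrays. It rose by 0.72 ± 0.13 (limma adjusted p = 0.00231, n = 6 per group), with 0.58 in batch 1 (adjusted p = 0.000238) and 0.86 in batch 2 (adjusted p = 0.115). Without background correction the change was 0.34, and its call was lost with the batch 1 arrays averaged (adjusted p = 0.0684).

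Slc15a2, which codes for the high-affinity peptide carrier PepT2 of kidney and glia, had changes of opposite sign in the batches. In batch 1 its change was 0.58 (adjusted p = 9.19e-05), while that of batch 2 was -1.06 (adjusted p = 0.496). Over 12 arrays it was -0.24 ± 0.47 (limma adjusted p = 0.761). GF replicate 6, at 4.73, stood far below the other GF arrays, which ran between 6.92 and 8.14, and without it the change was 0.27. Slc15a4, the lysosomal carrier of histidine and peptides PHT1, was at 0.24 ± 0.09 (adjusted p = 0.0806), with a call in batch 1 alone (0.37, adjusted p = 0.0110), without GF replicate 5 (0.31, adjusted p = 0.0115) and with array weights (0.30, adjusted p = 0.00266).

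**Figure D2:**
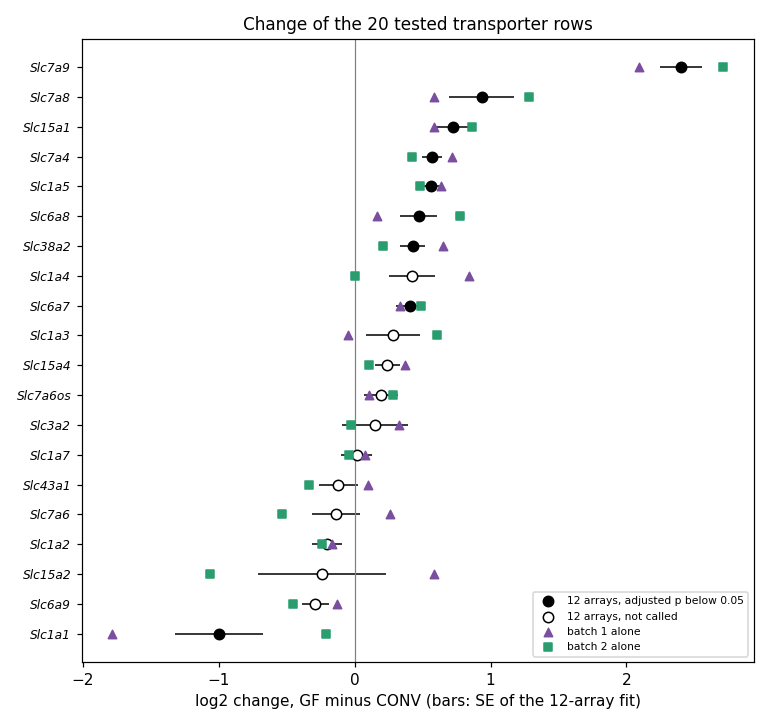
Log2 change (GF minus CONV) of the 20 tested rows over 12 arrays with its SE, and in each batch alone. Filled circles are the 9 rows called, triangles are batch 1 and squares are batch 2. Slc7a9 lies farthest to the right, at 2.40, and Slc1a1 farthest to the left, at -0.999, where the batches lie far apart.

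Family Slc7 had 13 rows, of which 5 could be tested and 3 rose. Beside Slc7a9, the light chain Slc7a8 (LAT2, a basolateral exchanger of neutral amino acids) rose by 0.93 ± 0.24, or 1.91-fold (limma adjusted p = 0.0145). Its log2 intensity ran from 5.73 to 7.18 in GF arrays with a median of 5.85, against 4.65 to 5.54 with a median of 5.22 in CONV arrays. The groups did not overlap. GF replicate 5, at 7.18, stood apart from the next GF array at 6.02, and without it the change was 0.70 (adjusted p = 0.00379). The change in batch 1 was 0.59 (adjusted p = 8.69e-05), that in batch 2 1.28 (adjusted p = 0.155). It was 0.44 without background correction.

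Slc7a4, related by sequence to the cationic amino acid transporters, rose by 0.57 ± 0.08 (limma adjusted p = 0.000321). It ran from 8.16 to 8.81 in GF arrays with a median of 8.37, against 7.36 to 8.28 with a median of 7.88 in CONV arrays. The ranges overlapped over 12 arrays because batch 2 was higher in both groups, and within each batch every GF array was above every CONV array. The change was 0.72 in batch 1 (adjusted p = 4.37e-05) and 0.42 in batch 2 (adjusted p = 0.123). Slc7a6, the light chain y+LAT2, was at -0.14 ± 0.18 (adjusted p = 0.62), with 0.26 in batch 1 (adjusted p = 0.0263) and -0.54 in batch 2. Slc7a6os was at 0.19 ± 0.12 (adjusted p = 0.287).

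The heavy chain with which Slc7a8 and Slc7a6 pair is Slc3a2, known as 4F2hc or CD98. It was not called, at 0.15 ± 0.24 (limma adjusted p = 0.704), and was detected on 4 arrays of each group. Its values ran from 4.58 to 6.13 in GF arrays with a median of 5.75, and from 4.75 to 5.95 with a median of 5.46 in CONV arrays. The ranges overlapped almost wholly, with a log2 SD of 0.59 in GF and 0.46 in CONV.

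Family Slc1 was measurable in all 6 of its rows, with 1 row higher and 1 lower. Slc1a5 codes for ASCT2, a sodium-dependent exchanger that supplies glutamine and other neutral amino acids. In batch 1 it was at 8.45, 8.31 and 8.39 in GF arrays, against 7.66, 7.79 and 7.78 in CONV arrays. In batch 2 it was at 5.15, 4.95 and 5.35 in GF arrays, against 4.71, 4.58 and 4.73 in CONV arrays. The level thus differed far more between the batches than between the groups, and in batch 2 the row was detected on 1 of 3 GF arrays and 0 of 3 CONV arrays. The change, fitted with batch, was 0.56 ± 0.08 (limma adjusted p = 0.000362), with 0.64 in batch 1 (adjusted p = 8.58e-05) and 0.48 in batch 2 (adjusted p = 0.126).

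Slc1a1 codes for EAAT3, the sodium-coupled carrier of glutamate, aspartate and cysteine, and was the member that fell. In batch 1 it was at 7.60, 7.61 and 7.74 in GF arrays, against 9.33, 9.50 and 9.48 in CONV arrays. In batch 2 it was at 8.06, 9.82 and 8.38 in GF arrays, against 9.02, 8.69 and 9.20 in CONV arrays. The groups were far apart in batch 1, and in batch 2 a single array, GF replicate 5, was above every CONV array while the other 2 GF arrays were below them. Over 12 arrays it changed by -0.999 ± 0.32, which is 2.00-fold (limma adjusted p = 0.0434), with -1.78 in batch 1 (adjusted p = 4.72e-07) and -0.21 in batch 2 (adjusted p = 0.834). Without GF replicate 5 it was -1.32 (adjusted p = 0.000342), and it was no longer called without any 1 of GF replicates 1, 2, 3, 4 or 6 or CONV replicates 1, 2, 3 or 6 (adjusted p up to 0.0969). The difference between the batches did not pass (adjusted p = 0.0702).

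Slc1a4, the neutral amino acid exchanger ASCT1, was higher in all 3 GF arrays of batch 1, at 12.05, 11.99 and 12.11, against 11.35, 11.09 and 11.19 in CONV arrays. In batch 2 the arrays overlapped, at 10.50, 10.07 and 10.55 in GF against 9.99, 10.41 and 10.70 in CONV. Its change over 12 arrays was 0.42 ± 0.17 (limma adjusted p = 0.0941), and it passed in batch 1 alone (0.84, adjusted p = 4.61e-05), without GF replicate 5 (0.54, adjusted p = 0.0215) and without CONV replicate 6 (0.54, adjusted p = 0.0229). The glutamate carriers Slc1a2, Slc1a3 and Slc1a7, which are best known from brain and retina, were not called, at -0.21 ± 0.11, 0.28 ± 0.20 and 0.02 ± 0.11 (adjusted p = 0.214, 0.339 and 0.942).

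Of the 11 rows of family Slc6, the sodium- and chloride-coupled carriers, 3 could be tested and 2 rose. Slc6a8, the creatine transporter, rose by 0.47 ± 0.14 (limma adjusted p = 0.0282). It ran from 12.09 to 12.51 in GF arrays with a median of 12.29, against 11.18 to 12.18 with a median of 11.95 in CONV arrays. Within each batch the GF arrays lay above the CONV arrays. The change was 0.16 in batch 1 (adjusted p = 0.0425) and 0.78 in batch 2 (adjusted p = 0.106). The call was lost without CONV replicate 6 (adjusted p = 0.0574).

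Slc6a7, the proline transporter known from brain synapses, rose by 0.41 ± 0.11 (limma adjusted p = 0.0171). It ran from 6.63 to 7.63 in GF arrays with a median of 6.90, against 6.31 to 6.94 with a median of 6.54 in CONV arrays. Within each batch the GF arrays were the higher ones. The change was 0.33 in batch 1 (adjusted p = 0.00384) and 0.48 in batch 2 (adjusted p = 0.245). Slc6a9, the glycine transporter GlyT1, was at -0.29 ± 0.10 and did not pass (adjusted p = 0.0539). It was lower in every GF array of each batch, with 7.94 to 8.97 in GF and 8.51 to 9.13 in CONV over 12 arrays.

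Slc38a2 codes for SNAT2, a sodium-coupled carrier of small neutral amino acids that cells raise when amino acids are short, and it was the 1 of 4 rows of its family that could be tested. It ran from 11.09 to 11.21 in GF arrays with a median of 11.19, against 10.40 to 11.20 with a median of 10.70 in CONV arrays. The GF arrays were closely alike, while the CONV arrays of batch 1 were lower than those of batch 2, so that the groups overlapped in batch 2. The rise was 0.43 ± 0.09 (limma adjusted p = 0.00652), with 0.65 in batch 1 (adjusted p = 6.31e-05) and 0.20 in batch 2 (adjusted p = 0.430). In family Slc43, Slc43a1, the carrier LAT3, was at -0.12 ± 0.14 (adjusted p = 0.590).

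All 9 rows called had the same sign in each batch, which their call over the mean of the batches favours, as had 14 of the 20 rows tested and 61% of all rows tested. In batch 1 alone 12 members were higher and 1 lower, against 23.4% and 23.5% of all rows, or 46.9% in either direction. In batch 2 alone 1 member was higher and 0 were lower by limma, against 1.05% and 1.54% of all rows, or 2.59% in either direction, and 8 of 20 members had an unadjusted p below 0.05, as had 1545 of all 8122 rows. Calls were frequent among all rows of batch 1, where the correlation across rows between arrays of 1 group was 0.993 to 0.998, against 0.978 to 0.989 in batch 2. No member's change differed between the batches after adjustment: the interaction in limma called 0 of 20 members and 8.64% of all rows (3.87% with a higher and 4.78% with a lower change in batch 2). At an unadjusted p below 0.05 there were 7 of 20 members and 1924 of 8122 rows.

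**Figure D3:**
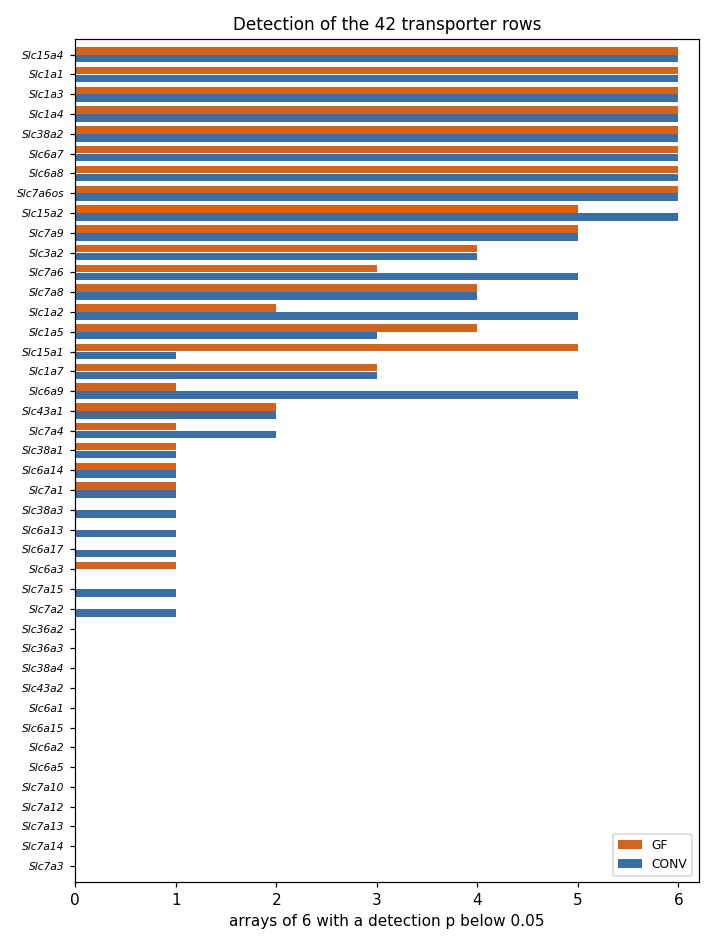
Number of arrays, of 6 in each group, on which each of the 42 rows was detected (detection p below 0.05). Of the 42 rows, 13 were detected on no array, and Slc15a1 has 5 GF arrays and 1 CONV array.

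The other 22 rows did not reach 3 arrays with detection: 13 were detected on 0 arrays, 6 on 1 array and 3 on 2 arrays. They were Slc36a2 and Slc36a3, Slc38a1, Slc38a3 and Slc38a4, Slc43a2, and 8 rows each of families Slc6 and Slc7. Among them were the broad neutral and cationic carrier Slc6a14 and the cationic carriers Slc7a1 and Slc7a2. Their group means lay between 4.52 and 5.21, near the floor of the scale, and fitted without the detection filter limma called 0 of the 22, with 0 at an unadjusted p below 0.05. At this signal a difference is hard to tell from background, so these rows say nothing about whether the genes are used.

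Detection and brightness did not always go together, which bears on the counts of arrays detected. Of the 20 tested rows 12 had a detection p between the steps that single probes give on at least 1 array, among them Slc7a9, Slc7a4 and Slc6a9. Slc7a4 was detected on 1 GF array and 2 CONV arrays although its lowest value was 7.36, and Slc6a9 on 1 GF array and 5 CONV arrays although its lowest value was 7.94.

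Peptidases produce the substrates of these carriers. Of 12 tested genes of a list of brush-border and cytosolic peptidases 8 were higher in GF, 1 was lower and 3 were not called, with a median change of 0.68, against 11% of all rows higher and 11.9% lower. Anpep, aminopeptidase N, rose by 3.76 ± 0.12 (limma adjusted p = 3.58e-09), with a group mean of 9.07 in GF and 5.31 in CONV. It was detected on 6 of 6 GF arrays and on 3 of 6 CONV arrays, so its CONV signal lies near the background and the size of the change is uncertain. Naaladl1 and Xpnpep2, peptidases that cut from the end of a chain, rose by 2.67 ± 0.18 and 1.56 ± 0.12. Dpep1, a brush-border dipeptidase, and Cpm, a carboxypeptidase, were not called, at 0.08 ± 0.07 and 0.24 ± 0.09 (adjusted p = 0.437 and 0.0815).

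A list of proteins that anchor, power or remove the carriers gave 3 rises and 0 falls among 6 tested genes. Of all rows, 11% were higher and 11.9% lower. In batch 1 alone 4 of the 6 were higher, against 23.4% of all rows. In batch 2 alone 1 was higher, against 1.05%. The difference between the batches passed for 1 of the 6, against 8.64% of all rows. Slc9a3r1, a scaffold of brush-border transporters, rose by 0.51 ± 0.11 (limma adjusted p = 0.00487). Nedd4l, a ubiquitin ligase that removes transporters from the membrane, and Cdhr5, a protocadherin of microvilli, were not called, at 0.09 ± 0.09 and -0.09 ± 0.09 (adjusted p = 0.490 for each).

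Among 11 tested genes of the amino acid response and of amino acid synthesis, 1 was higher, 3 were lower and 7 were not called, with a median of 0.20, against 11% of all rows higher and 11.9% lower. In batch 1 alone 8 were higher and 3 lower, against 23.4% and 23.5% of all rows. In batch 2 alone 0 were higher and 2 lower, against 1.05% and 1.54% of all rows. The difference between the batches passed for 7 of the 11, against 8.64% of all rows. Psat1 and Shmt2, enzymes of serine and glycine synthesis, changed by -0.68 ± 0.07 (limma adjusted p = 4.94e-05) and -0.51 ± 0.09, and Asns, asparagine synthetase, by -0.48 ± 0.09 (adjusted p = 0.00304). Cebpg, a partner of ATF4, rose by 0.23 ± 0.06 (adjusted p = 0.0203), and Atf4 itself, the factor that drives the response, was at 0.00 ± 0.14 (adjusted p = 0.998). This is the mean of opposite changes, 0.39 in batch 1 (adjusted p = 0.000560) and -0.38 in batch 2 (adjusted p = 0.233), which differed (interaction adjusted p = 0.0129). Nupr1, a stress-response gene, was at 0.88 ± 0.43 (adjusted p = 0.168), with 2.30 in batch 1 and -0.53 in batch 2.

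Of 10 tested genes of a list of amino acid breakdown, 3 were lower, 1 was higher and 6 were not called, with a median of -0.20, against 11.9% of all rows lower and 11% higher. Glul, 1 of the 6 not called, is glutamine synthetase, which makes glutamine. Arg2, mitochondrial arginase, changed by -1.47 ± 0.31 (limma adjusted p = 0.00514), Got2, mitochondrial aspartate aminotransferase, by -0.35 ± 0.06, and Bckdhb, of the branched-chain keto acid dehydrogenase, by -0.42 ± 0.12. Aldh4a1, an enzyme of proline breakdown, rose by 0.51 ± 0.06 (adjusted p = 0.000179). Gpt and Oat, an alanine and an ornithine aminotransferase, were not called, at -0.35 ± 0.16 and 0.15 ± 0.10. Oat was detected on 0 arrays of batch 1, so only batch 2 could measure it, with a change of 0.24 (adjusted p = 0.349).

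Of 13 tested genes of amino acid sensing upstream of mTORC1, 2 were higher, 1 was lower and 10 were not called, a share close to the 22.9% of all rows called in either direction. In batch 1 alone 8 of the 13 were higher and 0 lower, against 23.4% and 23.5% of all rows. In batch 2 alone 0 were called, against 2.59% of all rows. Deptor, an mTOR inhibitor, and Rraga, a Rag GTPase, rose by 0.28 ± 0.08 (limma adjusted p = 0.0208) and 0.35 ± 0.11 (adjusted p = 0.0328), and Lamtor2, of the Ragulator complex, fell by 0.38 ± 0.11 (adjusted p = 0.0310). Rraga was dim, with group means of 5.32 in GF and 4.97 in CONV. It was detected on 3 GF and 2 CONV arrays, all of batch 1, so it passed the detection filter through its GF arrays. Lamtor4 and Rragc were not called, at 0.13 ± 0.10 and 0.20 ± 0.10. Among 7 tested transcription factors of gut carriers limma called 0, with 1 at an unadjusted p below 0.05 (Klf4, a factor of differentiated epithelium, at -0.14 ± 0.06, chosen after its value was seen). Hnf4a was at 0.15 ± 0.09 (adjusted p = 0.263) and Cdx1 at 0.14 ± 0.09 (adjusted p = 0.293).

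**Figure D4:**
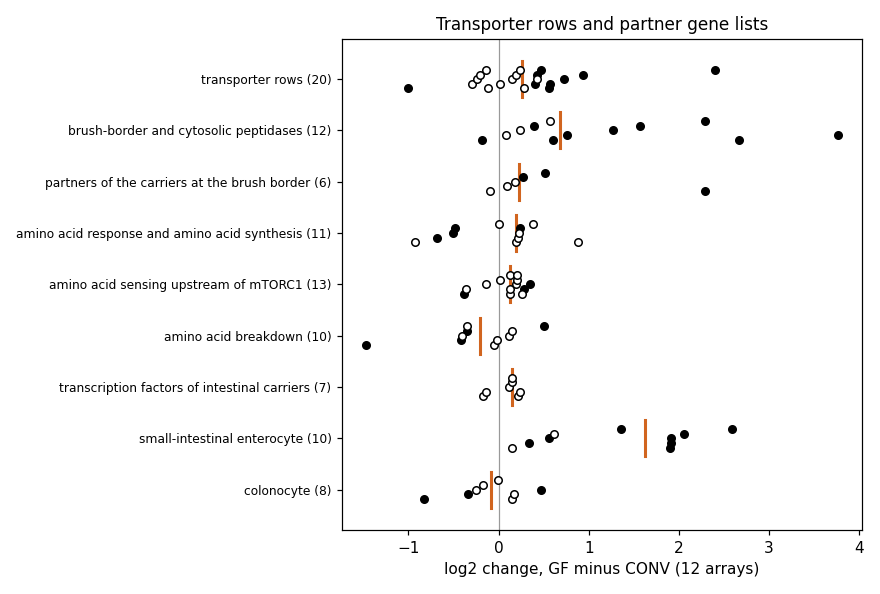
Log2 change (GF minus CONV, 12 arrays) of each tested gene of the transporter set, 6 partner lists and 2 cell type lists, with the number tested in brackets. Filled points were called, open points were not, and the bar marks the median, which is 0.26 for the transporters, 0.68 for the peptidases and 1.63 for the small-intestinal enterocyte markers.

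Markers of other cell types were also called. The counts below stand against these shares of all rows tested. Over 12 arrays 11% were higher and 11.9% lower. In batch 1 alone 23.4% were higher and 23.5% lower, and in batch 2 alone 1.05% and 1.54%. The difference between the batches passed for 8.64%. Of 10 tested small-intestinal enterocyte markers 8 were higher in GF and 2 were not called, and the summed intensity of the list's 12 rows was 4284 to 6901 in GF arrays, against 1562 to 4326 in CONV arrays. Fabp2, a defining marker, was detected on 0 of 12 arrays and Apoa4 on 1. Of 6 proliferation markers 5 were lower in GF, with sums of 2132 to 2732 in GF arrays, against 3950 to 5298 in CONV arrays. Of 8 tested colonocyte markers 1 was higher and 2 were lower, and all 8 were detected on at least 3 arrays, while 6 of 8 leukocyte rows were detected on no array. The leukocyte row Cd3g, of the T cell receptor complex, was detected on all 12 arrays and was not called (0.37 ± 0.21, limma adjusted p = 0.237), with 1.00 in batch 1 (adjusted p = 3.21e-06) and -0.26 in batch 2. Goblet cell markers were higher for 3 of 5 tested and lower for 1. In batch 1 alone 3 of these 5 were higher and 1 lower, while in batch 2 alone 0 were higher and 0 lower. The difference between the batches passed for 2 of the 5, Spdef and Zg16, the latter at 1.18 in batch 1 and 0.05 in batch 2. Enteroendocrine markers were higher for 2 of 4 and tuft cell markers for 1 of 3. Of 2 Paneth cell markers 1 was higher and 1 lower. In the lists of fibroblast, smooth muscle, endothelium, neuron and glia, and distal colon markers limma called 0 of the 8 tested, with 1 at an unadjusted p below 0.05. The part of these shifts in the carriers' changes was not tested, and in such samples a change in the share of cells of a type and a change in RNA per cell cannot be told apart.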

How the data were processed

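Isolated colonocytes of C57BL/6 mice were measured as total RNA on Illumina bead arrays. Per the labels, 6 GF and 6 CONV samples fell into 2 batches of 3 per group. The deposited table held natural log intensities: raised to base e, 95.1% to 97.5% of an array's values come out with 7 significant digits, and with base 2 no more than 0.6% do. The detection p-values were deposited beside them. Of tools, the submitters' processing notes list limma, with no version. For the array design, the scanner software and the build, nothing is given in the sources used here. Batch 2 arrays share 2063 to 2264 exact values with each other (561 to 651 in batch 1), and how the authors treated batch 2 before deposit is unknown. The series matrix holds identical values for the 15132 rows it shares by name.

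Intensities were background corrected with normexp (mean and SD of the negative controls from the detection p, offset 16), log2 transformed and quantile normalized over the 12 arrays. Between 7090 and 7402 rows were detected per array of batch 1 and 6089 to 6470 in batch 2. Rows detected (p under 0.05) on 3 or more arrays, 8122 in all, were fitted with batch and group (R 4.3.3, limma 3.58.1, lmFit and eBayes, two-sided, Benjamini-Hochberg over all rows), within each batch, and with an interaction. The number of arrays limits the precision. The steps were tested on simulated data. The planned unit was intensity, whereas the files hold natural logs. The members and lists were chosen with earlier results of these data known. Named were all members called, known gut carriers, those with the brightest signal, and of each list up to 4 called genes with the smallest adjusted p and 2 uncalled with the highest signal. Some list genes that this rule names are not reported here. Older row names of list genes were updated through RefSeq's gene table. Labels give both groups replicate numbers 1 to 6 without saying that a number pairs samples. Since separate animals are not stated, p-values measure only the spread between these samples.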

Additional observations from a re-analysis of the deposited data

Results flagged for a closer look

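A single array stood far from the other 5 of its group in 5 of 40 groups checked (20 rows, GF and CONV), where chance flags about 1 in 20 groups of 6 alike samples. These groups mix 2 batches that differ in level and spread, so that share does not hold here. The arrays apart were GF replicate 6 for Slc15a2, at 4.73 against 6.92 for the next array, and for Slc1a2, at 5.33 against 4.97. GF replicate 5 was at 9.82 for Slc1a1 (next 8.38) and at 7.18 for Slc7a8 (next 6.02). CONV replicate 6 was at 4.95 for Slc7a6, against 5.83 for the next array. All 5 values came from batch 2.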

How the results depend on the processing

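The direction of Slc7a9 and its call held under all 25 alternatives (1.73 to 2.71). The number of transporters higher in GF, 8, stayed between 8 and 10 without any 1 array, and the number lower, 1, between 0 and 2. With a detection p below 0.01 on 6 arrays 12 members could be tested, of which 6 were higher and 1 lower, and Slc15a1 and Slc7a4 were not tested. The median change of the members was 0.15 without background correction, 0.17 with normexp without controls, 0.15 in batch 2 alone and 0.42 with that filter. The number higher was 2 without a batch term, 1 in batch 2 alone and 1 with the batch 1 arrays averaged. The number lower was 0 with no detection filter, no batch term, the replicate block, batch 2 alone or the batch 1 arrays averaged, and 2 without background correction, with normexp without controls, array weights or eBayes with trend and robust, where Slc6a9 was the one added. With the replicate number as a block 6 were higher and 0 lower, and Slc6a7, Slc6a8 and Slc1a1 lost their call. Whether the numbers pair the samples is unknown. After group and batch means were removed, same-numbered arrays correlated at -0.25 to 0.04, and 1 of 6 GF arrays matched its own number best. With 3 arrays per group and batch this cannot exclude a pairing.

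Some members that were not called changed sign: Slc15a2 with array weights (0.40), in batch 1 alone (0.58) and without GF replicate 6 (0.27, with -0.49 to 0.27 over the arrays left out), Slc1a3 in batch 1 alone (-0.05) and Slc3a2 in batch 2 alone (-0.02). Slc43a1 did so with array weights (0.06), in batch 1 alone (0.10) and without GF replicate 5 (0.03, with -0.17 to 0.03 over the arrays left out), and Slc7a6 with array weights (0.13) and in batch 1 alone (0.26). Slc1a7, near 0 throughout, did so in batch 2 alone (-0.04), without GF replicate 1 (-0.01) or 4 (-0.04), CONV replicate 3 (0.00) or 4 (-0.04) and with batch 1 averaged (-0.01). The cause was not tested. Over all rows the calls were 895 higher and 968 lower, 990 and 905 with 75th percentile scaling, 982 and 930 with cyclic loess, 2103 and 2188 with array weights, 547 and 603 with the replicate block, 108 and 133 without a batch term, and 801 and 867 without the filter. The series matrix was not run as an alternative, since its values are the same. Signal near background limits the dim rows, among them Slc15a1 and Slc7a8.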
